A study of Saccharomyces cerevisiae with 6 samples.

Results

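The transcripts described here are the stable unannotated transcripts (SUTs) of *Saccharomyces cerevisiae* that were readily detected in control cells. A SUT belonged to the set when its mean over the 3 *RRP4* libraries was at least 4 CPM (counts divided by the library total and multiplied by 1000000). Of 847 SUTs in the count tables, 452 met this limit, and the other 395 are called faint SUTs. The limit was set on the levels in *RRP4* cells, so these levels are a description and carry no test.

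The study modelled a disease-linked amino acid substitution of the human exosome subunit EXOSC2 in its yeast ortholog, Rrp4, and compared RNA from mutant and control cells. Both groups were haploid BY4742 cells (MATα) with ura3Δ0, leu2Δ0 and his3Δ1 alleles, to which the study's strain list adds lys2Δ0, and with chromosomal *RRP4* deleted and replaced by NEO. In 3 *rrp4-G226D* cultures the only *RRP4* came from a pRS315 plasmid (LEU2, CEN) encoding the substituted protein with 2 Myc tags, and in 3 *RRP4* cultures it came from the same plasmid with the unsubstituted protein, tagged alike. All 6 cultures were kept in medium lacking leucine at 37°C for 5 h, so the control cells shared the deletion, the plasmid, the tag and the heat.

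SUTs are noncoding RNAs made by RNA polymerase II, often from the nucleosome-free regions of promoters and often in the opposite direction to a neighbouring gene. They are capped and polyadenylated and are visible in wild-type cells, unlike cryptic unstable transcripts (CUTs), which the nuclear RNA exosome degrades soon after synthesis and which are seen mainly when the exosome or its cofactor Rrp6 is impaired. The Nrd1-Nab3-Sen1 complex ends transcription of many CUTs and passes them to the exosome through the TRAMP complex, whereas many SUTs end at sites like those of mRNAs and reach the cytoplasm, where the 5′ to 3′ exonuclease Xrn1 and nonsense-mediated decay degrade many of them. Rrp4 is one of the cap subunits of the exosome, through which RNA is threaded towards the catalytic subunit Dis3.

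The genotype is defined by the codon that G226D changes in *RRP4* (YHR069C), which lies on the minus strand of chromosome VIII at positions 233981 to 233983 of the R64 assembly. The stretch around it in the RefSeq reference is shown because it is the only planned difference between the groups. The codon, glycine in the reference and aspartate in the mutant protein, is in capitals, and the 63 bases run 5′ to 3′ along the coding strand from position 234013 to 233951.
RRP4 around the codon of G226D: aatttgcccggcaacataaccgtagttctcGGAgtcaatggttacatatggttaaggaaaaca

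Count tables alone cannot show this codon. *RRP4* mRNA itself was at 299, 281 and 302 CPM in the *rrp4-G226D* libraries, against 178, 167 and 165 CPM in the *RRP4* libraries, after scaling with TMM factors (trimmed mean of M values), as are all CPM per library below. Every mutant library exceeded every control library, and the log2 fold change was 0.79 ± 0.06 (the error here and below is the standard error of the fit; edgeR's quasi-likelihood test, adjusted p = 4.5e-09).

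Library totals were 9360608 to 12181979 counts in *rrp4-G226D* cells and 7663545 to 10601422 counts in *RRP4* cells. The median SUT of the set had 147.5 to 191 counts per *rrp4-G226D* library and 65 to 89 counts per *RRP4* library. The MATα markers *MF(ALPHA)1*, *STE3* and *SAG1* averaged 1174, 117 and 70.9 CPM in *rrp4-G226D* cells and 1393, 151 and 42.1 CPM in *RRP4* cells. The MATα marker *MF(ALPHA)2* was low, at 5.14 and 5.41 CPM. It lay under the MATa markers *STE2* (11.2 and 10.6 CPM) and *BAR1* (9.14 and 7.98 CPM). The 5 markers of MATa cells were each at most 13.2 CPM in any library, and *URA3* had no counts in any library. SUTs are named here by their running number in the files, which follows their order along the chromosomes, together with the nearest open reading frames (ORFs) of RefSeq listed before and after them. These numbers are not the catalogue names of SUTs (0 of 9 SUTs that RefSeq annotates lay on the chromosome that carries the same number in the files), so no catalogue name is given. SUT positions and lengths were not used here, so a SUT may overlap a listed ORF, and its level mixes length and abundance. RefSeq held 6025 of the 6713 ORFs counted, so an ORF outside RefSeq may be listed closer to a SUT than those given.

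In *rrp4-G226D* cells the set spanned 2.20 to 164 CPM with a median of 13.6 CPM (means of 3 libraries), and in *RRP4* cells it spanned 4.69 to 87.1 CPM with a median of 9.85 CPM. Replicates were close, with a median coefficient of variation of 8.26% in *rrp4-G226D* cells and 10.4% in *RRP4* cells. The 10 SUTs highest in *RRP4* cells took 10.0 to 10.3% of the set's counts in the *rrp4-G226D* libraries and 10.6 to 10.8% in the *RRP4* libraries.

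The most abundant SUT in both genotypes was SUTs222, between *GCG1*, which encodes an enzyme that degrades glutathione, and *CHD1*, a chromatin remodeler, on chromosome V (positions 503783 to 505391 separate these ORFs). It had 173, 157 and 162 CPM in *rrp4-G226D* cells, against 89.4, 85.4 and 86.4 CPM in *RRP4* cells. Every mutant library was above every control library, with a log2 fold change of 0.91 ± 0.06 (edgeR's quasi-likelihood test, adjusted p = 1.3e-09). SUTs756, between *MSC6* and *GDS1* on chromosome XV, had 106, 95.8 and 113 CPM in *rrp4-G226D* cells, against 59.8, 52.6 and 54.6 CPM in *RRP4* cells. It also rose without overlap between the groups, by 0.91 ± 0.07 on the log2 scale (edgeR's quasi-likelihood test, adjusted p = 1.2e-08). SUTs214, between the Pho85 cyclin gene *PCL6* and *FCY21*, and SUTs44, between *VBA2* and the sulfate permease gene *SUL1*, rose by 0.59 and 0.61, just past the limit of 1.5-fold. SUTs214 fell under that limit without *rrp4-G226D* replicate 2 or 3 or *RRP4* replicate 1 or 2, and SUTs44 without *RRP4* replicate 2.

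The other 6 of the 10 most abundant SUTs did not pass. SUTs472, between *STB6* and *OSI1* on chromosome XI, had 97.6, 82.9 and 83.4 CPM in *rrp4-G226D* cells, against 80.1, 82.2 and 80.1 CPM in *RRP4* cells. All 3 mutant values were higher, yet 2 of them by little, and the log2 difference was 0.12 ± 0.07 (edgeR's quasi-likelihood test, adjusted p = 0.15). SUTs759, between the iron-uptake genes *FIT3* and *FRE5*, SUTs432, between *ECM27* and *LIH1*, and SUTs28, between the replication origin subunit gene *ORC2* and *TRM7*, had log2 differences of 0.19, 0.30 and 0.17. SUTs607, between *NCW1* and *PKR1* on chromosome XIII, had 53.6, 56.8 and 53.0 CPM in *rrp4-G226D* cells, against 60.5, 75.2 and 61.4 CPM in *RRP4* cells. Its mutant libraries all lay below its control libraries, at a log2 difference of −0.28 ± 0.08 (edgeR's quasi-likelihood test, adjusted p = 0.0081), smaller than 1.5-fold. SUTs844, on chromosome XVI, was likewise lower in the mutant libraries, at −0.21. Both signs hang on the scaling, since with library totals alone SUTs607 was at 0.17 and SUTs844 at 0.24.

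**Figure D1:**
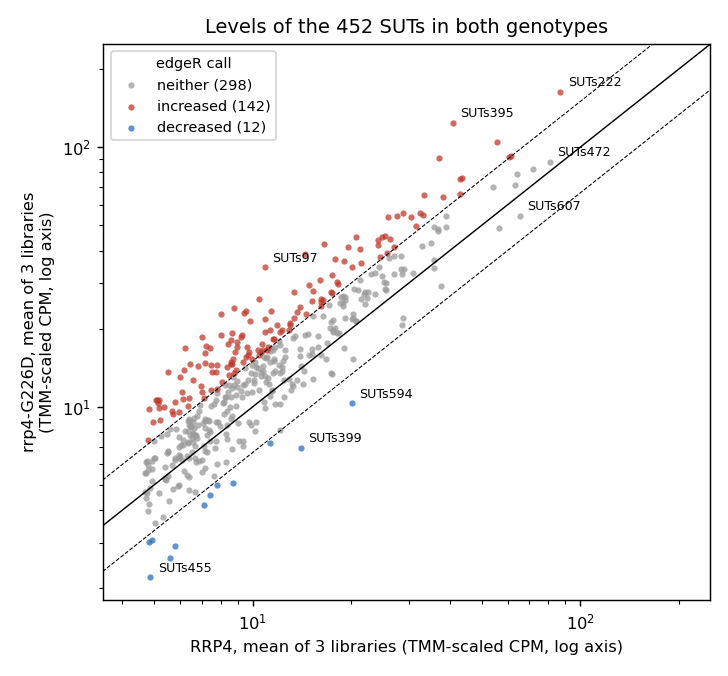
Mean level of each of the 452 SUTs in *rrp4-G226D* cells (vertical) and *RRP4* cells (horizontal), in TMM-scaled CPM on log axes, with 1 point for each SUT. The solid line marks equal levels and the dashed lines 1.5-fold differences; 142 SUTs in red increased, 12 in blue decreased and 298 in grey did neither, and points lie above the solid line along the whole range of levels.

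All 452 SUTs passed the filter on low counts and were tested. At an adjusted p under 0.05 and a change of at least 1.5-fold in edgeR's quasi-likelihood test, 142 SUTs (31.4%) increased in *rrp4-G226D* cells, where 12.7% of all 7631 features tested increased. In the other direction, 12 SUTs (2.65%) decreased, where 11.3% of all features decreased. The median log2 fold change of the set was 0.36 (quartiles 0.10 and 0.66, range −1.12 to 1.65), against 0.01 over all features, and it was positive for 367 SUTs and negative for 85. The changes were mostly small, with 225 SUTs between 0 and the 1.5-fold limit. At least 2-fold up were 38 SUTs, 3 of them by more than 1.5 on the log2 scale, against 411 of the 7631 features. All *rrp4-G226D* values exceeded all *RRP4* values for 262 SUTs (58.0%, against 31.3% of all features) and were under all of them for 32 (7.08%, against 32.8% of all features). When the library totals alone set the scale, the median of all features moved to 0.46, that of the set was 0.81, and 328 SUTs increased and 2 decreased, where 37.7% of all features increased and 1.99% decreased.

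The *RRP4* level that chose the set is also one side of each ratio. The change was therefore taken again with the set chosen on a pair of *RRP4* libraries and the 3 *rrp4-G226D* libraries compared with the remaining one, which assumes that the lone library varies like the mutant group. Against *RRP4* replicate 1, 2 and 3 in turn, the median log2 fold change was 0.40 over 455 SUTs, 0.39 over 452 and 0.37 over 445. In edgeR's quasi-likelihood test 143, 162 and 132 SUTs increased, where 9.81%, 10.4% and 9.19% of all features did, and 11, 8 and 8 decreased, where 10.9%, 11.2% and 10.7% did. With the SUTs split by *RRP4* level into 4 bins of like size, the medians against the 3 replicates were 0.28 to 0.34 in the lowest bin, 0.39 to 0.40 in the next, 0.39 to 0.46 in the third and 0.40 to 0.41 in the highest. Against none of the 3 replicates did the median rise at every step from the lowest bin to the highest. Spearman's rho between level and change over the SUTs was 0.05, 0.06 and 0.10, given as a description since the SUTs share their libraries.

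The 10 largest increases and decreases below were taken from called SUTs without overlap between the groups, so separation is part of that rule. Separation held for all 142 increases and all 12 decreases. The largest increase was in SUTs97, between *RAD55*, which acts in recombinational repair, and the cell wall gene *SED1* on chromosome IV (positions 599689 to 600792 separate the ORFs). It had 37.1, 33.9 and 32.5 CPM in *rrp4-G226D* cells, against 11.6, 10.7 and 10.4 CPM in *RRP4* cells. The groups were far apart, with a log2 fold change of 1.65 ± 0.11 (edgeR's quasi-likelihood test, adjusted p = 1.0e-09), while *RAD55* and *SED1* were at −0.10 and 0.03. SUTs395, between the cell wall gene *CIS3* and *FAR1*, an inhibitor of cell cycle entry in the pheromone response, combined a high level with a large change. It had 127, 126 and 119 CPM in *rrp4-G226D* cells, against 39.7, 39.3 and 43.7 CPM in *RRP4* cells. The ORFs beside it, on chromosome X, are separated by positions 122949 to 123835. This SUT was the second most abundant of the set in *rrp4-G226D* cells and 15th in *RRP4* cells, and its log2 fold change was 1.61 ± 0.07 (edgeR's quasi-likelihood test, adjusted p = 1.5e-11).

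SUTs37, between *DTR1* and the ribosomal protein gene *RPS6B*, had 22.0, 21.9 and 24.2 CPM in *rrp4-G226D* cells, against 8.48, 7.16 and 8.33 CPM in *RRP4* cells. Its libraries separated fully at a log2 fold change of 1.52 ± 0.12 (edgeR's quasi-likelihood test, adjusted p = 1.3e-08), whereas *RPS6B* mRNA decreased, at −0.80. SUTs254, between the Rab GTPase gene *YPT32* and the glucose repressor gene *MIG2*, had 13.2, 18.8 and 18.5 CPM in *rrp4-G226D* cells, against 6.06, 5.42 and 7.14 CPM in *RRP4* cells. One mutant library was clearly lower than the other 2 and still above every control library (1.46 ± 0.17). SUTs403, between *IME2*, a kinase of meiosis, and *SET4*, had 23.0, 24.4 and 24.8 CPM in *rrp4-G226D* cells, against 9.57, 8.24 and 8.47 CPM in *RRP4* cells, again without overlap (1.46 ± 0.12).

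SUTs391, between *TOH1* and *ASG7*, had 33.2, 40.9 and 41.8 CPM in *rrp4-G226D* cells, against 17.2, 12.8 and 13.2 CPM in *RRP4* cells. SUTs487, between *KAE1* and the amino acid permease gene *GAP1*, had 17.9, 19.4 and 18.3 CPM in *rrp4-G226D* cells, against 7.51, 6.62 and 6.84 CPM in *RRP4* cells. Both rose, by 1.43 and 1.41 on the log2 scale, with every mutant library above every control library. The remaining 3 of the 10 largest increases were SUTs690 next to *RRI2* at 1.35, SUTs569 next to the NADH dehydrogenase gene *NDI1* at 1.31 and SUTs142, between *GMC1* and the septin kinase gene *GIN4*, at 1.30. SUTs180, between *MNT3* and *PDR11* on chromosome IX and named after its values were seen, was close to these at 1.30 and took rank 6 of the set in *rrp4-G226D* cells, against rank 20 in *RRP4* cells. Even so, 7 SUTs were among the top 10 of both genotypes and 39 among the top 50 of both.

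Of the 12 SUTs that decreased, 9 were under the median *RRP4* level of the set, as were 67 of the 142 that increased. With library totals alone the calling rule kept SUTs455 and SUTs306 as decreased. The *RRP4* level that chose the set is one side of each ratio, which can favour decreases close to the limit. No single decrease was taken again with the set chosen on other libraries. SUTs594, between the dolichol kinase gene *SEC59* and *BUD22*, was the most abundant of the 12. It had 10.6, 9.28 and 11.1 CPM in *rrp4-G226D* cells, against 20.8, 19.5 and 19.8 CPM in *RRP4* cells. Its groups were fully apart (−0.95 ± 0.12; edgeR's quasi-likelihood test, adjusted p = 2.3e-06), while *SEC59* and *BUD22* were at −0.01 and 0.51. SUTs399, between *PHO86* and *NCA3* on chromosome X, had 8.61, 5.40 and 6.84 CPM in *rrp4-G226D* cells, against 16.5, 14.0 and 11.7 CPM in *RRP4* cells. Its values varied more within each group but did not overlap (−1.03 ± 0.17; edgeR's quasi-likelihood test, adjusted p = 5.6e-05), and *NCA3* mRNA increased, at 0.77.

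SUTs455, between *MCD4*, which acts in GPI anchor synthesis, and the cell wall gene *PIR1*, had the largest decrease. It had 1.48, 2.70 and 2.42 CPM in *rrp4-G226D* cells, against 4.60, 4.66 and 5.35 CPM in *RRP4* cells. The groups were apart at −1.12 ± 0.25 (edgeR's quasi-likelihood test, adjusted p = 8.5e-04), and *MCD4* mRNA was at −0.62. Of the ORFs listed before and after decreased SUTs, 3 of 10 and 1 of 11 decreased, where 13.0% of all ORFs decreased. SUTs306, between *TRS65* and the clathrin light chain gene *CLC1*, had 2.68, 2.95 and 2.21 CPM in *rrp4-G226D* cells, against 4.85, 5.64 and 6.24 CPM in *RRP4* cells (−1.09 ± 0.22). SUTs615, between *CMC4* and *ICY1*, had 2.78, 3.21 and 2.71 CPM in *rrp4-G226D* cells, against 6.30, 4.23 and 6.84 CPM in *RRP4* cells (−0.98 ± 0.23), and *CMC4* was at −1.27. In both SUTs all mutant libraries were below all control libraries. The other 5 of the 10 largest decreases were smaller: SUTs170 next to *ICE2* was at −0.77, SUTs54 next to the septin gene *CDC10* at −0.75, and SUTs511, SUTs620 and SUTs312 at −0.69, −0.69 and −0.68. Of these, SUTs511 lost the call without *rrp4-G226D* replicate 3 or *RRP4* replicate 1 or 3, and SUTs312 without *RRP4* replicate 1.

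**Figure D2:**
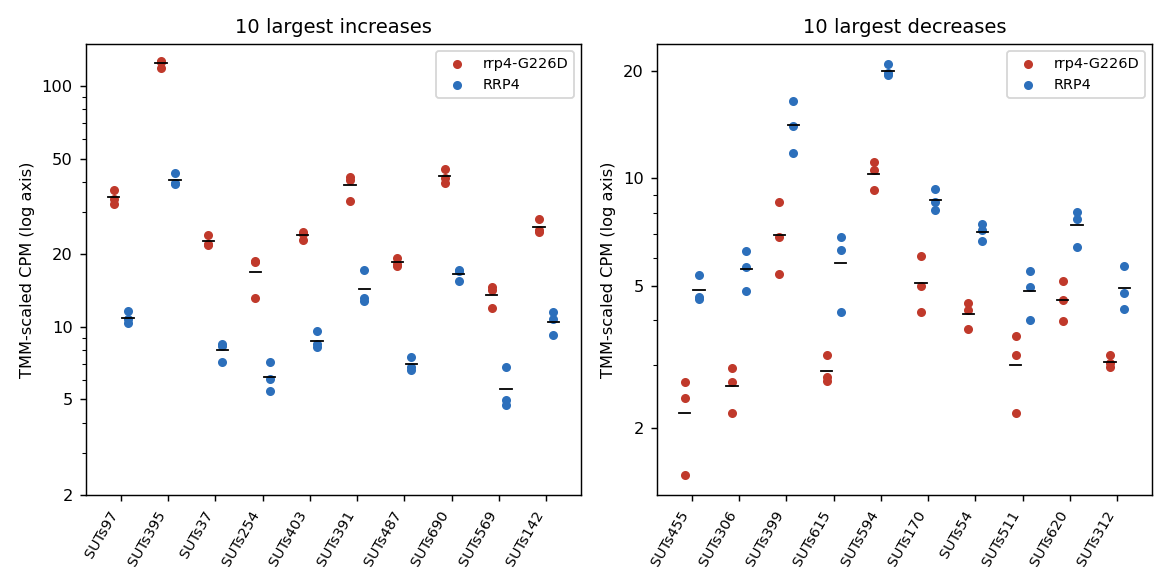
Level in each library (TMM-scaled CPM, log axis) of the 10 SUTs with the largest increases (left) and the 10 with the largest decreases (right), *rrp4-G226D* in red to the left of *RRP4* in blue, with bars at the mean of 3 libraries. The 3 libraries of one genotype do not overlap those of the other for any of these 20 SUTs, by the rule that chose them, and SUTs395 stands out by level at 119 to 127 CPM in *rrp4-G226D* cells and 39.3 to 43.7 CPM in *RRP4* cells.

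Among SUTs above the median level, the changes closest to 0 were those of SUTs836, SUTs442, SUTs95 and SUTs502, with log2 differences of 0.01, 0.01, 0.02 and 0.02 and standard errors of 0.13 to 0.16. SUTs502, next to *THI73*, had 15.2, 15.2 and 12.6 CPM in *rrp4-G226D* cells, against 13.6, 13.8 and 14.9 CPM in *RRP4* cells, so that the groups overlapped. Levels next to the limit are given as a description. SUTs293, SUTs771 and SUTs296 were inside at 4.71, 4.69 and 4.70 TMM-scaled CPM on average in *RRP4* cells, and SUTs693, SUTs585 and SUTs195 were outside at 4.62, 4.62 and 4.59.

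The set was then compared with other transcript classes of the same libraries. It took 0.993, 1.02 and 1.00% of all counts in the *rrp4-G226D* libraries, against 0.517, 0.533 and 0.552% in the *RRP4* libraries. The mean share was 1.01 ± 0.02% in *rrp4-G226D* cells and 0.534 ± 0.017% in *RRP4* cells (SD, n = 3 each), a ratio of 1.88, with an exact two-sided permutation p of 0.1, the smallest that 3 against 3 libraries allow. The *RRP4* values that chose the set enter this comparison. The difference of 0.471 percentage points was 0.474 with the set chosen on a pair of *RRP4* libraries and the control value taken from the remaining one. The share of ORFs moved with it, at 82.3 to 84.1% in *rrp4-G226D* libraries and 69.7 to 73.7% in *RRP4* libraries. Relative to ORFs within the same library, the counts of the set were 1.64 times as high in *rrp4-G226D* cells as in *RRP4* cells, a log2 difference of 0.72 ± 0.02 (standard error) with no overlap between the groups (exact permutation p = 0.1, n = 3 each), and it was also 0.72 with the set chosen on a pair of *RRP4* libraries and the control value taken from the remaining one. With the median of log2(CPM + 0.5) of each class in place of the sums, the difference was 0.54. Single ORFs had a median log2 fold change of −0.07, with 5.38% increased and 13.0% decreased.

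Readily detected CUTs, the 179 CUTs at or above the same limit, moved further than the SUTs. Of these, 109 (60.9%) increased and 4 decreased in edgeR's quasi-likelihood test, where 12.7% of all features increased and 11.3% decreased, and their median log2 fold change was 0.74. The log2 ratio of summed SUT counts to summed CUT counts was 1.60, 1.65 and 1.58 in *rrp4-G226D* libraries, against 1.85, 1.91 and 1.87 in *RRP4* libraries. The ratio was lower in every mutant library, by −0.26 ± 0.03 on the log2 scale (exact two-sided permutation p = 0.1, n = 3 each), a value free of scaling since both sums come from the same library. With both classes chosen on a pair of *RRP4* libraries and the control value taken from the remaining one, the difference was −0.27.

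The faint SUTs were split from the set on the *RRP4* values themselves, so the comparison of these classes is a description with no test. The filter on low counts kept 309 of the 395, some of which it can keep only where they are high in *rrp4-G226D* cells, and no count of changes is given for them. The log2 ratio of readily detected to faint SUT counts was 2.89, 2.95 and 2.95 in *rrp4-G226D* libraries, against 2.92, 2.90 and 2.88 in *RRP4* libraries. The groups overlapped at a difference of 0.03, which was 0.086 with the split made on a pair of *RRP4* libraries and the control value taken from the remaining one. The set held 88.1 to 88.5% of all SUT counts in *rrp4-G226D* libraries and 88.1 to 88.3% in *RRP4* libraries. At the limit of 4 CPM on plain library totals, 582 SUTs would be readily detected in *rrp4-G226D* cells, made up of 447 of the 452 and 135 faint SUTs, on a scale on which the median of all features was itself 0.46 higher in *rrp4-G226D* cells (log2). The 5 that dropped below it were SUTs306, SUTs312, SUTs455, SUTs511 and SUTs615.

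**Figure D3:**
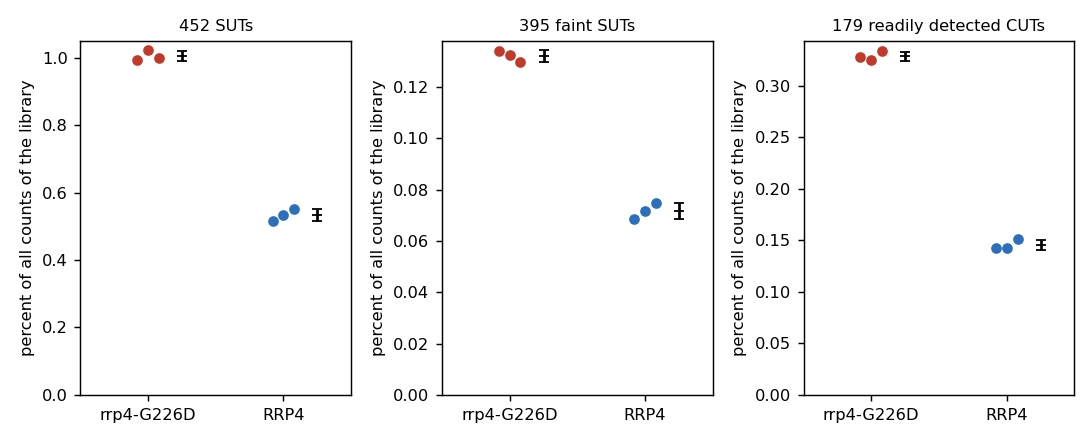
Percent of all counts of each library (vertical, from 0) taken by the 452 SUTs, the 395 faint SUTs and the 179 readily detected CUTs, with *rrp4-G226D* left of *RRP4*. Points are libraries and bars the mean with its SD; the 452 SUTs took 0.993 to 1.02% in *rrp4-G226D* libraries and 0.517 to 0.552% in *RRP4* libraries.

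**Figure D4:**
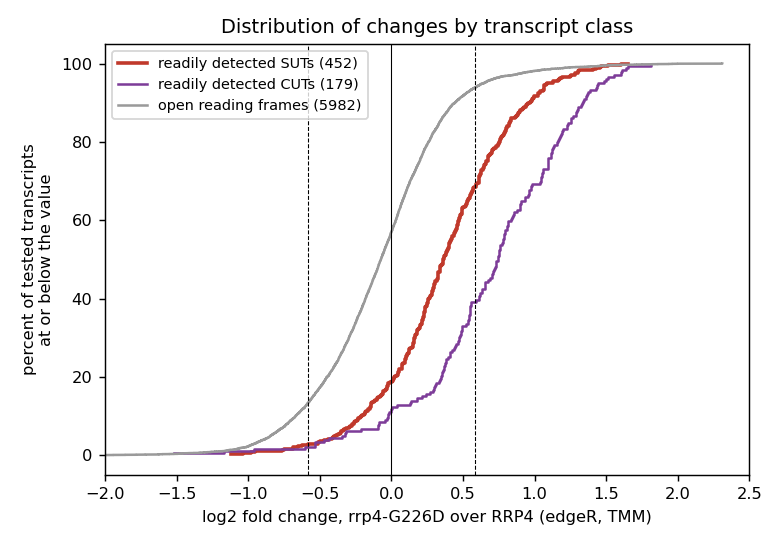
Percent of tested transcripts (vertical) at or below each log2 fold change of *rrp4-G226D* over *RRP4* (horizontal) for 452 readily detected SUTs, 179 readily detected CUTs and ORFs. The SUT curve, with its median at 0.36, runs between those of ORFs at −0.07 and CUTs at 0.74; dashed lines mark 1.5-fold.

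The change was spread over the genome. SUTs of the set lay on all 16 chromosomes, and the share that increased ran from 1 of 12 on chromosome III (8.33%) to 3 of 5 on chromosome I (60%), with 17 of 50 on chromosome VII (34.0%), which held the most. Of all features, 12.7% increased and 11.3% decreased, and their shares by chromosome or arrangement were not taken. The ORFs listed on either side pointed apart for 130 SUTs, the same way for 277 and towards each other for 45. In these arrangements 33.8%, 32.1% and 20% of the SUTs increased, and 5, 3 and 4 SUTs decreased. The median log2 fold changes were 0.36, 0.39 and 0.29, and the quartiles overlapped widely. Across SUTs, the change showed little relation to that of the ORFs beside them, with Pearson's r of 0.01 for the ORF listed before (n = 436) and −0.03 for the ORF listed after (n = 440), given as a description since pairs share their libraries.

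In 24 places, 2 or 3 SUTs of the set (49 in all) were listed between the same ORFs. All of them increased in 2 places, some in 8 and none in 14, where 31.4% of the set and 12.7% of all features increased. Their log2 fold changes differed by a median of 0.48 within a place. The 2 places were chosen for this after the values were seen. SUTs366 and SUTs367, between the daughter-cell gene *DSE2* and the RNA polymerase subunit gene *RPC10*, were at 1.12 and 1.20 while *DSE2* mRNA decreased, at −0.94. SUTs325 and SUTs326, between *UPA1* and *ERV29*, were at 0.80 and 1.28. The place between *SOD1* and *ADO1* was likewise chosen after its values were seen. Both ORFs decreased (−1.26 and −0.79), SUTs430 decreased at −0.65 and its neighbour SUTs431 was at −0.07.

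At the mRNA level, 5 of 46 genes of RNA decay pathways met the calling rule of an adjusted p under 0.05 and at least 1.5-fold. Of these, 4 increased and 1 decreased, where 12.7% of all features increased and 11.3% decreased. Other genes changed by less than 1.5-fold at an adjusted p under 0.05, as *RRP40* (2.8e-04) and *NMD2* (2.0e-05) did in edgeR's quasi-likelihood test. Of all 7631 features, 4544 had an adjusted p under 0.05. Of 10 core exosome subunits, *RRP4* alone met the calling rule. The other 9 had log2 differences of −0.42 for the cap subunit gene *RRP40* up to 0.35 for *RRP45*, with the catalytic subunit gene *DIS3* at 0.22. None of 8 nuclear cofactor and TRAMP genes, 4 Ski complex genes and 6 genes of the Set2-Rpd3S pathway, which restrains transcription from within genes, met the rule in either direction. In the Nrd1-Nab3-Sen1 list, 3 of 7 genes increased: *NRD1* at 0.91, *NAB3* at 0.68 and *SEN1* at 0.59, with 0 decreased. *SEN1* lay at the limit and was under it, at 0.56 to 0.57, without *rrp4-G226D* replicate 2 or 3 or *RRP4* replicate 3. *NRD1* mRNA was at 520, 504 and 569 CPM in *rrp4-G226D* cells, against 308, 266 and 275 CPM in *RRP4* cells, and the groups did not overlap. Among 11 genes of cytoplasmic 5′ to 3′ decay and nonsense-mediated decay, the translation repressor gene *SCD6* decreased, at −0.63, and none increased. *SCD6* was under the limit with library totals alone, at −0.18, and with TMM over ORFs only, at −0.55. The part of these mRNA differences in the SUT levels was not tested.

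RNA came from whole cultures, so a change in the level per cell and in the share of cells that hold a SUT cannot be told apart.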

How the data were processed

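RNA-seq of rRNA-depleted total RNA gave 6 libraries, 3 independent cultures per genotype. Per the labels and the study's methods, the authors aligned paired reads with STAR to the R64 build extended by SUTs and CUTs and counted reads per feature with featureCounts (1.6.4). The deposited values are whole-number counts without normalization. A strand setting and the treatment of reads with several matches are not given in the sources used here, so a SUT that overlaps an ORF may hold its reads. The authors also deposited their DESeq2 results table, which holds mean signals, fold changes, standard errors, test scores and p-values and was not used here.

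Counts were fitted with edgeR 4.0.16 (R 4.3.3; TMM, filterByExpr, glmQLFit, glmQLFTest, genotype term) across 7631 of 8898 features, with Benjamini-Hochberg adjustment. The calling rule was an adjusted p under 0.05 and at least 1.5-fold. Ratios of classes used summed counts per library. Alternatives were DESeq2 1.42.0, other scalings, filters, thresholds and limits, a replicate term and leaving out each library. Named SUTs were the 10 highest in *RRP4* cells, the 10 largest called increases and decreases without overlap, the 4 nearest 0 above the median level, the 3 on either side of the limit and the 3 highest uncalled in *rrp4-G226D* cells; any others are said to be chosen on their values. The set, the gene lists and the rules were chosen with earlier results of these data known. Gene symbols and ORF positions came from RefSeq (R64).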

Additional observations from a re-analysis of the deposited data

How the results depend on the processing

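No called change of a named gene reversed. The counts of 142 increased and 12 decreased SUTs were the same with DESeq2. With library size only they were 328 and 2, where 37.7% of all features increased and 1.99% decreased. At 2-fold they were 38 and 3, against 411 and 189 of the 7631 features. With glmTreat against 1.5-fold they were 62 and 3, against 347 and 445 features. With a limit of 8 CPM they were 82 and 3 of 240 SUTs, where 12.7% of all features increased and 11.3% decreased. A minimum mean count of 50 left 7 of 437 SUTs decreased, against 700 features. The median log2 fold change of 0.36 became 0.81 with library size only (0.46 over all features), 0.44 with TMM over ORFs, 0.42 with a minimum mean count of 50, 0.38 with limits of 2 CPM or 4 TMM-scaled CPM, 0.42 with 8 CPM, and 0.40 and 0.39 with the set chosen without *RRP4* replicate 1 or 2. Leaving out each library gave medians of 0.34 to 0.38, 133 to 145 increases and 9 to 15 decreases. In these fits 886 to 937 of all features increased and 842 to 954 decreased. The change with the set chosen on a pair of *RRP4* libraries averaged 0.39, and was 0.84 with library size only, 0.47 with TMM over ORFs and 0.37 against *RRP4* replicate 3 alone. The log2 ratio of readily detected to faint SUTs differed by 0.086 with that choice, against 0.03, and by 0.26 with medians of log2(CPM + 0.5), where the pseudocount weighs more on faint SUTs. With these medians the difference was 0.54 against ORFs, where sums gave 0.72, and −0.35 against readily detected CUTs, where sums gave −0.26. Of the 46 RNA decay genes, 5 met the calling rule, against 17 with library size only, where 37.7% of all features increased and 1.99% decreased. At 2-fold 0 passed and with glmTreat 2. Of 689 values for single named genes under the alternatives, 617 kept their direction and their side of the threshold, 5 gained a call, 27 uncalled values changed sign and 40 lost the call, 8 of these with library size only: SUTs54, SUTs170, SUTs312, SUTs399, SUTs511, SUTs594, SUTs615 and SUTs620.

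Replicate numbers did not pair the libraries: deviations of same-numbered libraries correlated at 0.02, 0.07 and −0.07. With the replicate number as a block, 142 SUTs increased and 12 decreased at a median of 0.36, against 960 and 870 of all features. Counts of 16 to 32 for the lowest SUT of each library limit what can be said of the faintest members.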

Other observations

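The numbering of SUTs in the files deserves a look before any of them is matched to a published SUT. RefSeq places SUT053 on chromosome IV at positions 506334 to 507774, whereas number 53 in the files is listed on chromosome III before *YCR001W*. SUT125 and SUT126 are on chromosome VII in RefSeq, whereas numbers 125 and 126 in the files are listed on chromosome IV. None of the 9 SUTs that were compared was on the same chromosome under both, and the 847 numbers never decreased along the list.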
